A study of Mus musculus with 6 samples.

Results

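Zscan4 genes encode nuclear proteins with a SCAN domain and zinc fingers. They are transcribed in the mouse embryo at the 2-cell stage and, in cultures of mouse embryonic stem cells (mESCs), in a small and changing fraction of cells called 2-cell-like cells, where they are known for lengthening telomeres by recombination. The transcription factor Dux activates them there together with other genes of the 2-cell embryo. The family was taken as all genes of the GENCODE M21 annotation whose name begins with Zscan4, pseudogenes included, which gave 9 of 53390 annotated genes. Zscan4c, Zscan4d and Zscan4f, and with them the family, were chosen by their estimated counts and TPM in these same libraries, which were lower in TKO-2i than in TKO-serum. All differences of Zscan4 genes between these groups are therefore a description, with no test.

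RNA-seq was performed on TKO mESCs, a line that carries Dnmt1-/-, Dnmt3a-/- and Dnmt3b-/- and so lacks the enzymes that methylate DNA. The 3 libraries of TKO-serum came from cells in medium with 15% fetal calf serum and LIF at 500 U/ml, and the 3 libraries of TKO-2i from cells in serum-free N2B27 medium with 3 µM CHIR99021, which inhibits GSK3, 1 µM PD0325901, which inhibits MEK, and 1000 U/ml LIF, in which the study kept cells for 14 days. The labels call the libraries of a group biological replicates of 1 cell line, and poly(A)-selected RNA was sequenced with a kit that keeps the strand. Total estimated counts were 46228700, 44180642 and 43896549 in TKO-2i replicates 1, 2 and 3, and 38274042, 51932739 and 44827609 in TKO-serum replicates 1, 2 and 3.

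The comparison asks how the culture medium goes with Zscan4 transcripts in cells without DNA methyltransferases. Zscan4 transcripts were abundant in all TKO-serum libraries and close to the limit of counting in all TKO-2i libraries. The 9 genes together had 3791, 5548 and 4718 estimated counts in TKO-serum replicates 1, 2 and 3, and 43, 31 and 24 in TKO-2i replicates 1, 2 and 3. The groups did not overlap, and the lowest TKO-serum library held far more Zscan4 counts than all TKO-2i libraries together, which had 99 (sums are taken before rounding). In CPM, which are counts scaled to the TMM-normalized library size, the family sum was 98.3, 104 and 103 in TKO-serum and 0.968, 0.705 and 0.568 in TKO-2i. The means were 102 ± 3.10 and 0.747 ± 0.203 CPM (SD, n = 3 each), a ratio of 136. From the summed counts, TKO-serum was 136-fold higher than TKO-2i, with an exact 95% interval of 111 to 167 that covers counting error only. In bulk RNA, fewer 2-cell-like cells and less Zscan4 RNA per cell cannot be told apart.

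In TPM, which are scaled for transcript length as well, the family sum was 72.5, 86.0 and 78.4 in TKO-serum and 0.633, 0.521 and 0.373 in TKO-2i. The TKO-serum mean of 79.0 TPM lay above 89.7% of the 18177 genes that passed the filter on low counts, and the TKO-2i mean of 0.509 TPM above 19.3% of them. This sets a sum over 9 genes beside single genes. Single members lay above 37.3% (Zscan4-ps1) to 70.2% (Zscan4f) of tested genes in TKO-serum, mostly near or under the middle. All 9 members passed the filter, and they passed it through TKO-serum. In each of the 9 members every TKO-2i library lay under every TKO-serum library, as in 33.5% of all tested genes, while 34% lay the opposite way. The fitted log2 fold change of each member was under -4, as in 1.78% of all tested genes.

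**Figure D1:**
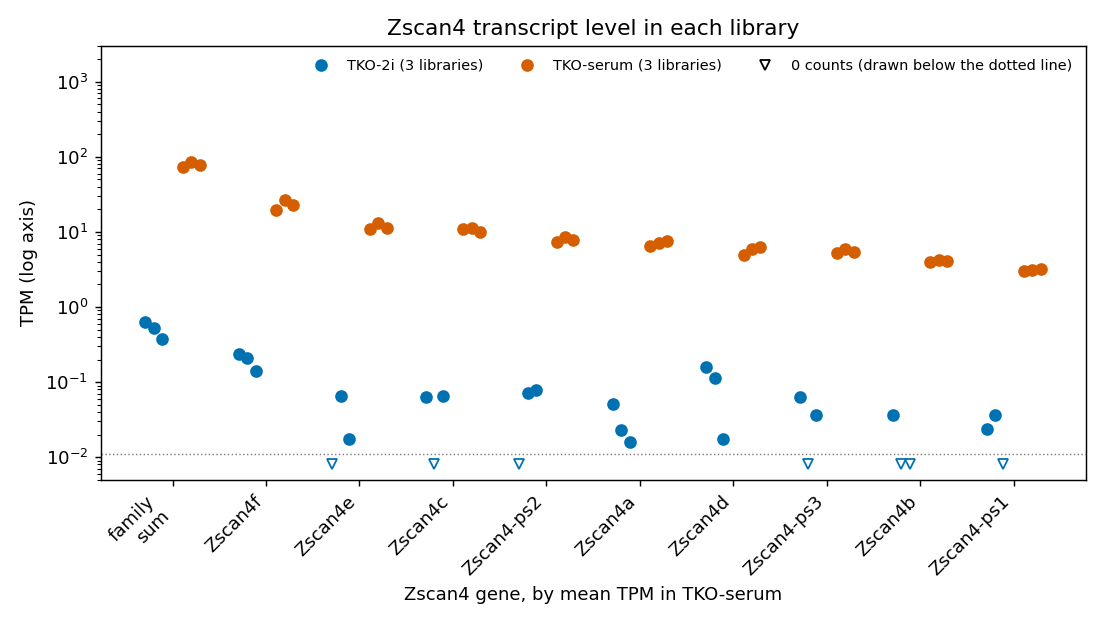
TPM of the Zscan4 family sum and of each Zscan4 gene (log axis), 1 point per library, with 3 TKO-2i and 3 TKO-serum libraries; open triangles mark libraries with 0 counts. The TKO-serum sums lie between 72.5 and 86.0 TPM and the TKO-2i sums between 0.373 and 0.633 TPM, and no member overlaps between the groups.

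The 9 genes lie within 819871 bases of chromosome 7 (GRCm38, chr7:10794242-11614112), 4 on the plus strand and 5 on the minus strand. From the lowest to the highest coordinate they are Zscan4a, Zscan4b, Zscan4c, Zscan4-ps1, Zscan4d, Zscan4e, Zscan4f, Zscan4-ps2 and Zscan4-ps3, with 54591 to 140218 bases between neighbours. GENCODE gives Zscan4a as an unprocessed pseudogene and the other 8 as protein-coding. RefSeq gives only Zscan4b, Zscan4c, Zscan4d and Zscan4f as protein-coding, Zscan4a as a transcribed pseudogene and the other 4 as pseudogenes. The longest transcript of each gene has 4 exons, and in the 8 genes with a coding sequence in GENCODE it spans 1518 bases (Zscan4b and Zscan4e) or 1521 bases (the other 6), stop codon included.

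Zscan4f (chr7:11397915-11402318, plus strand) had the highest level per length, at 19.6, 26.8 and 22.8 TPM in TKO-serum. Its TKO-2i libraries had 0.235, 0.210 and 0.142 TPM, from 15, 12 and 9 counts, and it was the only member with at least 9 counts in every TKO-2i library. Zscan4f is widely used as a marker of 2-cell-like cells. It has 2 annotated transcripts, and the 4-exon Zscan4f-202 of 1829 bases carried 14.1, 16.2 and 16.6 TPM in TKO-serum. The short Zscan4f-201 of 521 bases carried 5.47, 10.67 and 6.14 TPM from 46, 122 and 59 counts. In TPM the spread of Zscan4f between TKO-serum libraries came mostly from the short transcript (SD 2.83, against 1.32 for Zscan4f-202). The short transcript held few of the counts, with a mean of 75.6 against 964, so this holds for TPM only. Zscan4f-202 alone still exceeded every other member in TPM in each TKO-serum library.

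Zscan4c (chr7:11005745-11010547, plus strand), the copy known as the main one of mESCs, had 10.96, 11.3 and 10.02 TPM in TKO-serum, from 646, 860 and 682 counts. In TKO-2i it had 5, 0 and 4 counts. From the summed counts TKO-serum was 232-fold higher, with a counting interval of 122 to 508. Zscan4d (chr7:11161374-11166159, minus strand), the copy known as the main one of the 2-cell embryo, had 4.89, 5.86 and 6.23 TPM in TKO-serum from 287, 448 and 423 counts. In TKO-2i it had 11, 7 and 1 counts, so replicate 3 stood under the other 2. Its ratio of 55.3, with a counting interval of 35.6 to 90.8, was the smallest of the 9 members. That interval overlaps those of Zscan4f, Zscan4-ps1, Zscan4-ps2 and Zscan4-ps3, and the size of the ratio depends most on TKO-2i replicate 1. Zscan4c, Zscan4d and Zscan4f together held 46.0% of the family counts in TKO-serum.

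Zscan4b (chr7:10900740-10905050, minus strand) was the scarcest of the members that RefSeq gives as protein-coding. It had 3.93, 4.24 and 4.10 TPM in TKO-serum and 2, 0 and 0 counts in TKO-2i. Its ratio of 349 has a counting interval of 96.4 to 2890, so its size is poorly set by 2 counts. Zscan4e (chr7:11306378-11310682, minus strand), which the databases class differently, had 10.98, 13.0 and 11.4 TPM in TKO-serum and 0, 4 and 1 counts in TKO-2i. Its ratio was 403 (172 to 1241), an interval that lies inside that of Zscan4b. Of its 5 counts in TKO-2i 4 are in replicate 2, so the size of this ratio is poorly set too. The ratio of Zscan4f was 82.7 (59.6 to 118). Each interval takes the division of shared reads between copies as given.

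The other 4 members are pseudogenes by RefSeq and were transcribed in TKO-serum too, Zscan4-ps1 below every protein-coding copy and the other 3 within their range. In TKO-serum Zscan4-ps2 had 7.35, 8.56 and 7.86 TPM and Zscan4a had 6.53, 7.11 and 7.47 TPM. Zscan4-ps3 had 5.25, 5.999 and 5.34 TPM and Zscan4-ps1 had 3.02, 3.09 and 3.18 TPM. In TKO-2i replicates 1, 2 and 3 Zscan4-ps2 had 0, 5 and 5 counts, Zscan4a 4, 1 and 1, Zscan4-ps3 4, 0 and 2, and Zscan4-ps1 2, 2 and 0. In that order their ratios were 154 (83.4 to 321), 227 (104 to 619), 154 (74.3 to 383) and 141 (54.6 to 517), and these intervals overlap each other. With so few counts each ratio depends on single TKO-2i libraries, that of Zscan4a and of Zscan4-ps3 most on replicate 1.

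Ordered by mean TPM in TKO-serum the members ran Zscan4f, Zscan4e, Zscan4c, Zscan4-ps2, Zscan4a, Zscan4d, Zscan4-ps3, Zscan4b and Zscan4-ps1, with means of 23.1 ± 3.63, 11.8 ± 1.07, 10.76 ± 0.657, 7.93 ± 0.607, 7.03 ± 0.473, 5.66 ± 0.690, 5.53 ± 0.407, 4.09 ± 0.155 and 3.10 ± 0.0829 TPM (SD, n = 3). The ranges of Zscan4e and Zscan4c, of Zscan4-ps2 and Zscan4a, and of Zscan4d and Zscan4-ps3 overlapped between libraries. Within each TKO-serum library Zscan4e still exceeded Zscan4c and Zscan4-ps2 exceeded Zscan4a, while Zscan4d and Zscan4-ps3 changed places. The other 5 steps in the order had no overlap between TKO-serum libraries.

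**Figure D2:**
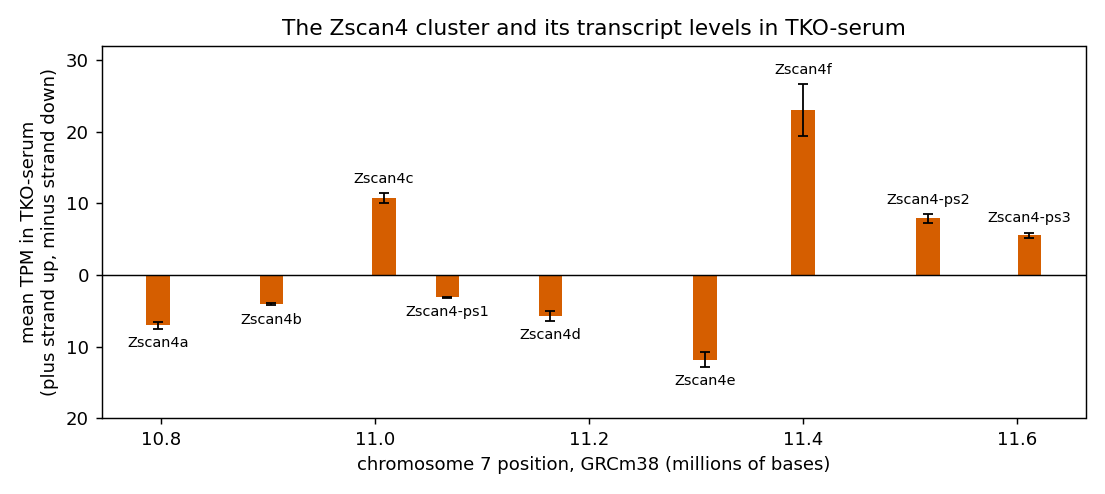
Mean TPM in TKO-serum (bars, error bars SD, n = 3) of the 9 Zscan4 genes at their position on chromosome 7 of GRCm38, with plus-strand genes drawn upwards and minus-strand genes downwards. Zscan4f is the tallest at 23.1 TPM, followed by its neighbour Zscan4e at 11.8 TPM.

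The division of the family between its members was nearly the same in the 3 TKO-serum libraries. Zscan4f held 21.1%, 22.2% and 23.0% of the family counts, Zscan4c 17.1%, 15.5% and 14.5%, Zscan4e 14.9%, 15.5% and 14.5%, and Zscan4-ps2 11.4%, 11.72% and 11.2%. In TKO-2i, with 99 family counts in all, Zscan4f held 35.6%, 38.6% and 36.2% of those in replicates 1, 2 and 3, Zscan4d 26.0%, 23.6% and 4.91%, and Zscan4e 0%, 11.4% and 4.16%. Zscan4c held 10.6%, 0% and 18.4%, and Zscan4-ps2 0%, 14.7% and 21.8%. The shares of Zscan4c, Zscan4d, Zscan4e and Zscan4-ps2 thus varied widely between TKO-2i libraries. How the quantifier divides reads between near-identical copies at such low counts was not tested.

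Replicates of TKO-serum were close. The family sum had a coefficient of variation of 3.05% in CPM, at percentile 44.2 among the 500 tested genes nearest in mean TKO-serum CPM, whose median was 3.48%. Among the members it ran from 0.597% in Zscan4b to 10.6% in Zscan4d. This sets a sum over 9 genes beside single genes. Single members lay from percentile 0.4 (Zscan4b) to 87 (Zscan4d) among the 500 tested genes nearest to each in level. Zscan4b had 204, 283 and 246 counts in TKO-serum, where counting error alone exceeds 0.597%. Its small spread therefore does not mark it as a steadier copy.

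The copies are so alike that many reads cannot be assigned to 1 member. Coding sequences shared from 96.5% (Zscan4b and Zscan4d) to 99.7% (Zscan4b and Zscan4e, and Zscan4f and Zscan4-ps2) of aligned bases. Of the 31-base words in its transcripts, Zscan4b had 4.77% found in no other gene, Zscan4e 6.30%, Zscan4-ps2 6.81%, Zscan4f 8.28% and Zscan4c 8.46%. Zscan4-ps3 had 18.9%, Zscan4a 23.3%, Zscan4d 35.0% and Zscan4-ps1 36.4% of such words. The levels of Zscan4d and Zscan4-ps1 thus rest on more sequence of their own than those of Zscan4b, Zscan4e, Zscan4-ps2, Zscan4f and Zscan4c. All 9 genes shared 348 words. Outside the family, 328 of the 6572 distinct words (4.99%) were found in transcripts of other genes, 233 of them in Gm45551, an unprocessed pseudogene inside the cluster. The family sum is therefore less uncertain than any single member.

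RefSeq promoter windows (GRCm38.p6, 250 bases before to 50 bases after the start) were given for 4 of the 9 genes, Zscan4b, Zscan4c, Zscan4d and Zscan4f, and are printed because these members share their pattern over the 6 libraries. The windows are chr7:10905001-10905300 (minus strand), chr7:11005495-11005794 (plus strand), chr7:11166099-11166398 (minus strand) and chr7:11397665-11397964 (plus strand). Capitals mark a 6-base TATA box and the only match to an 11-base core motif known for binding of DUX proteins, which matches on the strand opposite to the one printed.
Zscan4b: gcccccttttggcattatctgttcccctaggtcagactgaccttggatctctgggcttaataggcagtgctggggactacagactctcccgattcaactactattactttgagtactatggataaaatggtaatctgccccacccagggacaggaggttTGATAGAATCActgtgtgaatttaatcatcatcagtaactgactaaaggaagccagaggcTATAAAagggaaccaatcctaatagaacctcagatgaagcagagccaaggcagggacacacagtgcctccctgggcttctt
Zscan4c: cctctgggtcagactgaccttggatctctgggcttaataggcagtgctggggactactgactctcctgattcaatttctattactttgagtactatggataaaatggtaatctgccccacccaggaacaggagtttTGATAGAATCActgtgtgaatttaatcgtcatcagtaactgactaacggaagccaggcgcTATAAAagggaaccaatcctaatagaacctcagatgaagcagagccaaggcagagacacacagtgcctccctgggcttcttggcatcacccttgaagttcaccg
Zscan4d: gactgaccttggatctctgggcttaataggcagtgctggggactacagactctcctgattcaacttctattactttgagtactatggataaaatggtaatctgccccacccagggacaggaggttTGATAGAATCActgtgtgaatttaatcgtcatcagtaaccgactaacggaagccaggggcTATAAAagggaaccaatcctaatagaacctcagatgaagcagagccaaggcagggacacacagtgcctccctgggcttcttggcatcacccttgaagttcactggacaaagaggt
Zscan4f: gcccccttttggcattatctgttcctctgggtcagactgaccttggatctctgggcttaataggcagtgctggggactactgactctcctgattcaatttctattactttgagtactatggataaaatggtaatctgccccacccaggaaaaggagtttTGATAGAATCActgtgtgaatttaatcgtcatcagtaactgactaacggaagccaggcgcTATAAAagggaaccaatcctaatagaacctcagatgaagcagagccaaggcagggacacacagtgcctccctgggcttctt

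All 4 windows held both motifs, with exactly 60 bases between the first base of the DUX core match and that of the TATA box. The TATA box began 31 bases before the start in Zscan4b and Zscan4f, 54 bases before it in Zscan4c and 65 bases before it in Zscan4d, so the annotated starts differ more than the sequences do. Of 32851 mouse promoter windows of the same length, searched on both strands, 13.6% held the TATA box, 0.207% (68 windows) held this DUX core and 0.0548% (18 windows) held both. None of the 16 windows given for the 2-cell-like markers held this DUX core. Of 14 other tested genes with it, a set formed after the values were seen, 4 rose and 6 fell, or 71.4% called beside 62.5% of all genes, with a median log2 fold change of -0.22. A second core known for DUX proteins was found in 0.143% of windows, and its letters are in none of the Zscan4 windows. The closest pair, Zscan4c and Zscan4f, had 2 differences in 277 aligned positions, and the farthest, Zscan4b and Zscan4c, had 13 in 277. The windows held 1 to 4 CG dinucleotides each, against a median of 7 over all windows. A match is a description of letters and not of binding.

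No tested gene near the cluster fell as far as any Zscan4 member, and most genes there were not tested. Apart from Zscan4, 143 genes start within 1000000 bases of its outermost members, 11 of them were tested, and 3 rose and 3 fell (54.5% called) in TKO-2i at an adjusted p under 0.05 (edgeR quasi-likelihood test, Benjamini-Hochberg). Over all 18177 genes tested, 11361 (62.5%) passed that threshold, 5804 (31.9%) higher and 5557 (30.6%) lower in TKO-2i. The neighbours' median log2 fold change (TKO-2i over TKO-serum) was -0.24, against 0.01 over all genes. Zik1, a zinc finger gene and the nearest tested gene on the low-coordinate side, had 14.9 ± 1.26 CPM in TKO-2i against 14.8 ± 0.869 in TKO-serum, and on the other side the vomeronasal receptor gene Vmn1r72 had 0.153 ± 0.0808 against 0.263 ± 0.0397. Neither was called (adjusted p = 0.950 and 0.144). Of the neighbours the pseudogene Gm45351 changed the most, with 2.48 ± 0.309 CPM in TKO-2i against 0.610 ± 0.148 (2.03, SE 0.20, adjusted p = 4.20e-05). Inside the cluster 2 pseudogenes were tested. Gm45598 rose by a log2 fold change of 1.41 (SE 0.40, adjusted p = 0.0138), a call lost without TKO-serum replicate 2 (adjusted p = 0.0629), and Gm45551 fell, with -1.13 (SE 0.27, adjusted p = 0.00639). Gm45551 shares words with Zscan4, so its reads and theirs cannot be fully told apart.

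Dux, annotated here as Duxf3, moved in the same direction as the Zscan4 genes it is known to activate. Duxf3 had 73, 96 and 96 counts in TKO-serum and 0, 3 and 0 counts in TKO-2i, a ratio of 84.3 with a counting interval of 28.5 to 411. All its TKO-2i counts are in replicate 2, and without that library the log2 fold change moved from -6.24 to -9.44, so its size is poorly set. Duxf3 was called lower in TKO-2i (edgeR, adjusted p = 1.03e-05), but it passed the filter through TKO-serum, so its lower level is a description. Gm4981, a related copy on the same chromosome that was under the filter, had 8, 7 and 11 counts in TKO-serum and 2, 0 and 1 in TKO-2i. In TKO-serum the Zscan4 family sum of 79.0 TPM stood beside 1.43 TPM of Duxf3.

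The 4 other activators listed stayed well expressed in TKO-2i, where Zscan4 was near 0. Dppa4 and Dppa2, which act upstream of Dux, fell by much less than Zscan4. Dppa4 had 72.1, 69.2 and 66.4 CPM in TKO-2i against 151, 143 and 144 (log2 fold change -1.07, SE 0.06, adjusted p = 9.94e-07), and Dppa2 had 101, 108 and 79.9 CPM against 129, 141 and 129 (-0.46, SE 0.11, adjusted p = 0.00509). Tbx3, a T-box factor reported to favour Zscan4 expression, moved the opposite way. TKO-2i had 245, 251 and 242 CPM of it and TKO-serum 87.9, 84.3 and 85.2 (log2 fold change 1.52, SE 0.05, adjusted p = 1.05e-07). Nelfa, a maternal factor that can switch on the program, had 85.6 ± 7.22 and 88.6 ± 0.636 CPM. Of the 5 activators, 1 rose and 3 fell, where 31.9% of all genes rose and 30.6% fell (median log2 fold change -0.46). Duxf3 is 1 of the 3 that fell, and its lower level is a description only.

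Other genes that mark 2-cell-like cells beside Zscan4 were low in TKO-2i as well. Of 28 listed markers 22 were tested, and all 22 fell, against 30.6% of all genes (median log2 fold change -3.85). The 6 that were not tested had at most 14 counts in any library. Most tested markers passed the filter through TKO-serum and could hardly be called higher, so the count of 22 that fell is a description only. BB287469, with 16, 0 and 0 counts in TKO-2i, was not called by DESeq2 (adjusted p = 0.148). In TKO-serum most single markers had lower TPM than any Zscan4 member. There all 28 summed to a mean of 93.4 TPM, against 79.0 TPM for the 9 Zscan4 genes.

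Gm6763 was the most abundant marker in TPM in TKO-serum, though not in counts, where Tmem92 had more. It had 519, 624 and 640 counts in TKO-serum and 0, 0 and 3 in TKO-2i, a ratio of 567 (194 to 2753). That ratio rests on TKO-2i replicate 3, without which the log2 fold change moved from -8.99 to -12.21. AF067061 had 80, 100 and 79 counts in TKO-serum and 0 in all TKO-2i libraries, so it was at least 66.5-fold lower by the exact interval and 82.4-fold lower with 3 counts over the group as the floor. The zinc finger gene Zfp352 had 45, 94 and 53 counts against 0, 0 and 1, a ratio of 183 (32.5 to 7275) that rests on 1 count. Tmem92 kept a measurable level in TKO-2i, with 2.41, 2.02 and 2.06 CPM against 18.5, 18.3 and 20.8 (-3.15, SE 0.10, adjusted p = 9.10e-08). The deubiquitinase gene Usp17lc had 3, 7 and 5 counts against 148, 256 and 198, and Ubtfl1, with -1.93, had the smallest fold change of the 22. By these ratios Zscan4d, the member with the smallest, lay beyond most of the markers, though the intervals of several are wide.

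**Figure D3:**
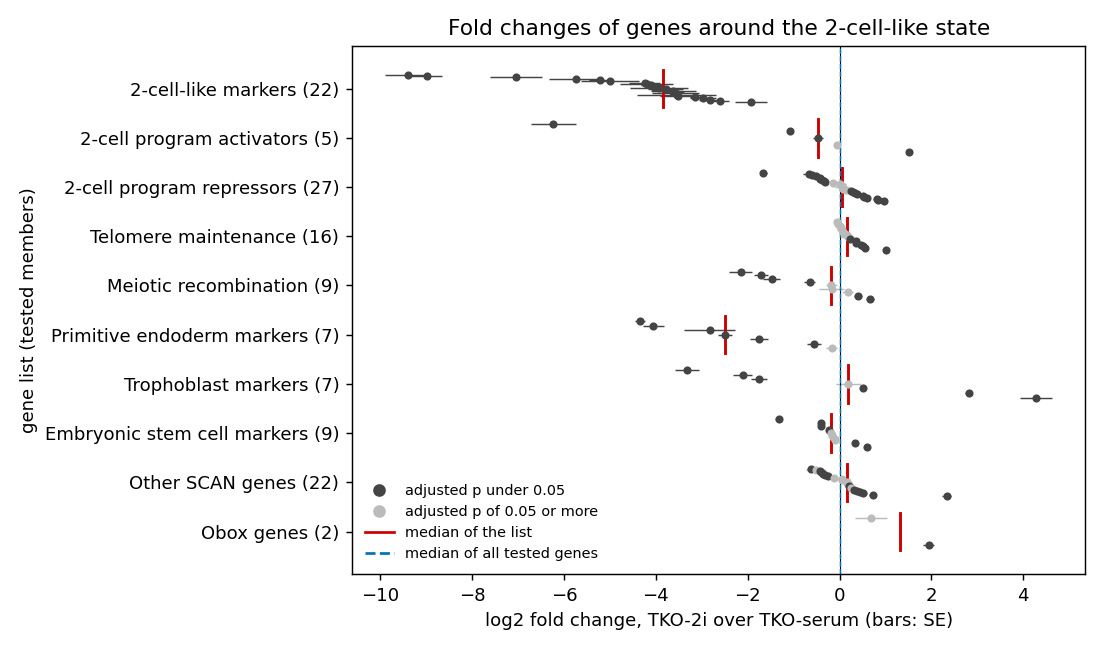
Log2 fold change (TKO-2i over TKO-serum, bars SE, 6 libraries) of each tested gene in 10 lists, with the median of each list and of all tested genes. The 22 tested 2-cell-like markers lie between -9.41 and -1.93, where the fitted value of AF067061, at 0 in all TKO-2i libraries, depends on the prior count, while the other lists drawn have medians between -0.46 and 1.31, apart from the primitive endoderm markers at -2.50. Fibroblast markers and the knocked-out genes are not drawn.

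The genes nearest to Zscan4 in pattern were found by the root mean square distance between mean-centred log2(CPM + 0.1) values over the 6 libraries, among 15077 tested protein-coding genes outside the family. In order of distance they were Gm21293, Gm13698, Spink1, AU015836, Cubn, Gm6763, Aass, Gm21761, Myl9 and Enpp2, at 0.26 to 0.79 log2 units from the Zscan4 family sum. Gm21293 followed it most closely, with 81.1, 84.5 and 86.3 CPM in TKO-serum and 0.781, 0.523 and 0.774 CPM in TKO-2i. It overlaps Gm6763, so reads of this pair are uncertain. Among the others Spink1 encodes a secreted trypsin inhibitor, Cubn the endocytic receptor cubilin, Aass an enzyme of lysine breakdown, Myl9 a myosin light chain and Enpp2 the enzyme autotaxin. Cubn had 6, 10 and 8 counts in TKO-2i and 802, 1246 and 1073 in TKO-serum. As the 6 libraries form 2 groups, likeness mostly measures the size of the difference between them. With log2(CPM + 1), 6 of these 10 genes stayed among the nearest 10.

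Regulators that hold the 2-cell program down did not move as a group. All 27 listed repressors were tested, 10 rose and 9 fell, so 70.4% were called against 62.5% of all genes (median log2 fold change 0.05). Lin28a, an RNA-binding protein that represses Dux with nucleolin, fell with -1.66 (SE 0.08, adjusted p = 5.88e-07), and nucleolin itself (Ncl) fell with -0.34 (SE 0.05, adjusted p = 0.000232). Trim28, a corepressor of retroelements, fell with -0.43 (SE 0.06, adjusted p = 0.000201). Uhrf1, E2f6 and Chaf1b rose with 0.97, 0.83 and 0.81 (adjusted p = 9.60e-07, 2.47e-06 and 4.47e-05). Zscan4 was thus lower in the group in which these 3 were higher and Lin28a, Ncl and Trim28 were lower.

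Zscan4 proteins are tied to telomeres and to meiosis-specific homologous recombination genes, and these lists were read beside them. Of 16 telomere genes 7 rose and 0 fell in TKO-2i, so 43.8% were called against 62.5% of all genes (median log2 fold change 0.17). Pot1a, which binds the single-stranded telomere end, rose with 1.01 (SE 0.05, adjusted p = 9.28e-07), while Dkc1, a telomerase subunit, and Terf1, which coats telomere repeats, were not called (adjusted p = 0.718 and 0.485). Of 9 tested meiotic genes 4 fell and 2 rose, which is 66.7% called, near the 62.5% of all genes (median -0.18). The largest changes were those of Sycp1 and Sycp3, parts of the synaptonemal complex, with -2.16 and -1.48, and of the cohesin gene Smc1b with -1.71 (adjusted p = 0.000101, 0.000191 and 2.15e-05). Even Sycp1 changed far less than any Zscan4 member.

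Genes that share the SCAN domain with Zscan4 did not share its pattern. All 22 other Zscan and Zkscan genes were tested, 8 rose and 6 fell (63.6%, near the 62.5% of all genes), and their median log2 fold change was 0.16. Zscan10, a pluripotency factor and the most abundant of them, had 115 ± 8.10 CPM in TKO-2i against 152 ± 5.69 (-0.41, SE 0.07, adjusted p = 0.000689). Zscan5b, also on chromosome 7, rose the most, with means of 13.4 ± 0.956 CPM in TKO-2i and 2.66 ± 0.206 in TKO-serum (2.34, SE 0.10, adjusted p = 3.11e-07). Obox genes encode homeodomain proteins of the early embryo. Of 8 that GENCODE does not class as pseudogenes 2 were tested, and Obox6 rose with 1.94 (SE 0.12, adjusted p = 2.10e-06), so it moved against Zscan4. Of 45 Obox pseudogenes, looked at after the values were seen, 3 were tested, and these passed the filter through TKO-serum. All 3 were lower in TKO-2i, where 30.6% of all genes fell, which is therefore a description only. Obox4-ps28 had 110, 172 and 116 counts in TKO-serum and 5, 10 and 3 in TKO-2i, Obox4-ps12 had 56, 69 and 58 against 5, 0 and 0, and Obox4-ps27 had 37, 61 and 34 against 0 in all.

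Both groups were mESCs by their markers, so the low Zscan4 level in TKO-2i came with stem cell transcripts at high levels. The 9 embryonic stem cell markers summed to 5584, 5125 and 5069 TPM in TKO-2i and 6439, 6116 and 6221 TPM in TKO-serum, led by Dppa5a. Of these 2 rose and 4 fell, or 66.7% called beside 62.5% of all genes. Nanog rose with 0.60 (SE 0.06, adjusted p = 2.68e-05) and Utf1 fell with -1.33 (SE 0.08, adjusted p = 2.72e-06). Pou5f1 had 1196 ± 140 and 1356 ± 68.3 CPM and was not called, though it was called lower in 6 of 14 alternatives. The 8 fibroblast markers summed to 5.98 to 6.79 TPM in TKO-2i and 6.48 to 7.06 TPM in TKO-serum, led by Thy1, with 1 of 4 tested genes higher and 2 lower (75% called, 62.5% of all genes), and Col3a1, Lum, Dcn and Postn under the filter.

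Markers of other early lineages also differed between the groups in which Zscan4 differs. The 7 primitive endoderm markers summed to 4.76, 5.80 and 4.69 TPM in TKO-2i and 14.6, 17.7 and 19.3 TPM in TKO-serum. Of these 0 rose and 6 fell, where 31.9% of all genes rose and 30.6% fell. Sox7, with 4, 7 and 6 counts in TKO-2i, and Foxa2, with 0, 3 and 3, passed the filter through TKO-serum. Their fall is therefore a description. Dab2, the most abundant in TKO-serum, fell with -4.35 (SE 0.11, adjusted p = 3.31e-08). The 7 trophoblast markers summed to 42.3, 40.8 and 38.5 TPM in TKO-2i and 27.6, 28.5 and 26.5 TPM in TKO-serum, led by Tfap2c, with 3 higher and 3 lower (85.7% called, 62.5% of all genes). Cdx2 rose with 4.28 (SE 0.35) and Gata3 fell with -3.33 (SE 0.26; adjusted p = 1.29e-05 and 1.03e-05). Gata3, with 5, 6 and 10 counts in TKO-2i, passed the filter through TKO-serum, and Cdx2, with 15, 19 and 7 in TKO-serum, through TKO-2i. Both changes are therefore a description. The part of these lineage markers in the Zscan4 values was not tested.

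Transcripts of the knocked-out genes were still counted in the libraries in which Zscan4 was compared. Dnmt1 had 6705, 6753 and 6616 counts in TKO-2i and 4985, 6893 and 5910 in TKO-serum. Dnmt3a had 320, 328 and 314 against 1165, 1563 and 1410 counts, and Dnmt3b 851, 895 and 880 against 1663, 2248 and 2020. Of these 3 genes 1 rose and 2 fell, where 31.9% and 30.6% of all genes did. Sums over whole transcripts include exons outside a deletion, and no wild-type library was analysed here, so these counts do not check the genotype.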

How the data were processed

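For each of the 6 libraries the authors deposited an estimated count of reads and a TPM value for each mouse transcript. The deposited estimated counts are not normalized and divide reads that several transcripts share, and the TPM values of the authors take transcript length into account and have the same total in each library. The quantifier is not given in the sources used here; the submitters' processing notes name mm10, which is GRCm38. By their identifiers 136100 of 136288 transcripts (99.86%) were found in GENCODE M21; their values were summed per gene and the counts rounded, and 0.0473% to 0.0643% of a library's counts were on other transcripts. Genes were filtered with filterByExpr, normalized by TMM and tested in edgeR 4.0.16 (R 4.3.3) with glmQLFit and glmQLFTest, with condition as the only factor and Benjamini-Hochberg adjustment over all 18177 genes. CPM use TMM-normalized library sizes, and 3 counts are 0.0564 to 0.0778 CPM. Ratios from summed counts have exact 95% conditional intervals, which, like the floors, cover counting error alone, as PCR duplicates are not marked. Transcripts and promoters were compared in Python with pandas 2.3.3, scipy 1.17.1 and biopython 1.88.

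Alternatives were DESeq2 1.42.0, its size factors in edgeR, no filter, at least 10 counts in every library, a replicate block, length-scaled TPM as counts, and limma 3.58.1 with log2(TPM + 1) or log2(TPM + 0.1) for genes with a TPM of at least 1 in 3 libraries, as well as leaving out each library. For Zscan4 they were TPM, DESeq2's size factors, length-scaled TPM, protein-coding members and leaving out each library, and 1 alternative was chosen after seeing the data. The members, lists and tests were chosen with earlier results of these data known. Named are all Zscan4 genes, tested members of the lists of 2-cell-like markers, activators, stem cell markers and knocked-out genes, in each other list up to 4 called members with the largest absolute log2 fold change and the 2 highest in TPM, the 10 nearest genes in pattern, and near the cluster the nearest tested gene on each side and the 3 called genes with the largest change. Other genes are named as untested members of a list, as the related copy of Duxf3, or as chosen after their values were seen.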

Additional observations from a re-analysis of the deposited data

How the results depend on the processing

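The log2 ratio of the Zscan4 family sum, -7.09 from CPM, lay between -7.32 and -6.93 when single libraries were left out, and at -7.28 with TPM, -7.11 with DESeq2's size factors, -7.22 with length-scaled TPM and -7.03 with the 8 members that GENCODE gives as protein-coding. With the 4 that RefSeq gives as protein-coding, an alternative chosen after seeing the data, it was -6.68. In TPM in place of counts, the TKO-serum shares of the family became 29.1% for Zscan4f, 13.7% for Zscan4c, 7.17% for Zscan4d, 7.01% for Zscan4-ps3, 8.93% for Zscan4a, 3.94% for Zscan4-ps1 and 10.04% for Zscan4-ps2, from 22.1%, 15.7%, 8.20%, 8.01%, 10.2%, 4.22% and 11.4%, since TPM divides by length. Whether the same numbers mark pairs of libraries could not be settled. Deviations from the group means correlated with 0.24, 0.33 and 0.01 for replicates 1, 2 and 3, and with -0.33 to 0.12 between different numbers. Each TKO-serum library correlated best with the TKO-2i library of its own number. Replicate 3 of TKO-2i, however, correlated best with replicate 1 of TKO-serum (0.12). A replicate block called 12539 genes in place of 11361. Limma on log2(TPM + 1) and on log2(TPM + 0.1) tested 14753 genes. It called 3744 and 3735 of them higher and 4342 and 4299 lower, where the main test called more genes higher than lower. Their median log2 fold change moved from 0.07 to -0.04 and -0.04. Both limma settings called lower 13 of 13 tested 2-cell-like markers, 1 of 2 fibroblast markers and 1 of 4 trophoblast markers. They also called lower 3 of 4 primitive endoderm markers, 3 of 19 other SCAN genes and 1 of 5 neighbours of the cluster. Called higher were 1 of 8 meiotic genes, 4 of 19 other SCAN genes and 0 of 3 knocked-out genes. With at least 10 counts in every library 4 of 4 tested 2-cell-like markers were lower, beside 4716 of all 15556 genes. That filter drops genes near 0 in TKO-2i. DESeq2 and edgeR without a filter each called 1 of 6 Obox genes lower, beside 5544 and 6380 of all 34355 genes. Among fold changes of named genes under alternatives, 1078 stayed on their side of the threshold, 17 passed it only under the alternative and 6 no longer passed it. No called gene changed sign, though the uncalled Nelfa, Dkc1 and Zik1, near 0, did in some. Dnmt1 (adjusted p = 0.131 and 0.132) and Stag3 (0.343 and 0.348) were not called by the limma settings. Depth limits the precision of Zscan4 ratios: with 2 to 36 counts per member over TKO-2i, differences between members in TKO-2i were mostly not detectable.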
